A study of Mus musculus with 16 samples.

Results

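The genes of the collagen chains were examined in bulk RNA-seq of pancreatic stellate cells and of sympathetic ganglia grown apart or together. The 44 members were the protein-coding rows whose symbol is Col, a number, the letter a and a number with nothing after it, among 56941 genes and 21684 protein-coding genes in each of 2 tables. They covered 27 collagen types and lay on 15 chromosomes. The rule used symbols and gene type alone and no measured value, but the members were chosen with earlier results of these data known.

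PSC libraries came from mPSC1, an immortalized line of mouse pancreatic stellate cells, the fibroblasts of the pancreas that lay down matrix once activated. The cells were cultured alone (PSC, n = 3) or with explants of the superior cervical ganglion (PSC+SCG, n = 3), a sympathetic ganglion taken from wild-type pups of postnatal days 1 to 4. Nerve libraries were made from such explants alone (SCG, n = 3), with NIH 3T3 cells, an embryonic fibroblast line (SCG+MEF, n = 3), or with mPSC1 cells (SCG+PSC, n = 4). In the cocultures 10000 cells of the line grew on an insert above 8 to 13 explants for about 70 hours, so medium was shared and contact was not, and each line stands for 1 established culture.

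A collagen is a trimer of chains that wind around each other in a triple helix. The fibrillar chains of types such as I, III and V build the fibers of connective tissue, and type IV chains build the sheet-like network of the basement membrane on which epithelia, vessels and Schwann cells rest. Type VI forms beaded filaments between cells and fibers, FACIT chains decorate fibers, the multiplexins XV and XVIII sit in basement membranes, and transmembrane collagens are anchored in the cell surface. Of the 44 members, 11 were assigned to the fibrillar class, 9 to FACIT, 6 to the basement membrane network, 6 to beaded filaments, 4 to the transmembrane class, 3 to short-chain networks, 2 to the multiplexins, 1 to the anchoring fibril (Col7a1) and 2 to no named class (Col26a1 and Col28a1).

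The values were normalized counts, the reads of a gene divided by a size factor of the library. In the 14 libraries whose reads could be recovered, 31900689 to 41632381 reads lay on genes. The labels fitted the marker lists. In PSC libraries 6 of 7 fibroblast markers averaged at least 10 while Th, Dbh, Sox10, Epcam and Adgre1 stayed under 10 in both groups. In nerve libraries all 9 neuron markers, all 7 glial markers and all 7 macrophage markers averaged at least 10 in every group. The explants are therefore mixtures, and in bulk RNA fewer cells of a type and less RNA per cell cannot be told apart. Replicates 3 stood apart. The first principal component, with 42.2% of the variance, separated both replicates 3 from the other PSC libraries, and in the nerve table, where it held 25% of the variance, SCG and SCG+MEF replicates 3 lay at its end. They stood at 68.7 and 72.3 there, while SCG+PSC replicate 3 stood at 12.9. On the third component SCG+PSC replicate 3 lay alone at −82.3, with the other nerve libraries between −10.1 and 28.7. No source used here says that same-numbered libraries were separate litters or days, and p-values measure the spread between these libraries.

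Collagen transcripts made up a similar share of each library's counts in both kinds of culture, but different chains filled it. The share, which does not depend on the size factor, was 2.41% ± 0.370 in PSC (SD, n = 3) and 2.37% ± 0.403 in PSC+SCG (SD, n = 3). It was 2.71% ± 0.420 in SCG (SD, n = 3), 2.68% ± 0.313 in SCG+MEF (SD, n = 3) and 2.704% ± 0.318 in SCG+PSC (SD, n = 4). The groups of each table differed by less than 1 SD. In stellate cells the fibrillar class took 1.75% ± 0.361 of all counts in PSC and 1.65% ± 0.443 in PSC+SCG, while the multiplexins took 0.0110% ± 0.00169 and 0.0105% ± 0.00120. In the explants the fibrillar class took 1.203% ± 0.350, 1.30% ± 0.265 and 1.33% ± 0.195 in SCG, SCG+MEF and SCG+PSC, and the multiplexins 0.539% ± 0.0996, 0.532% ± 0.143 and 0.545% ± 0.0869.

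**Figure D1:**
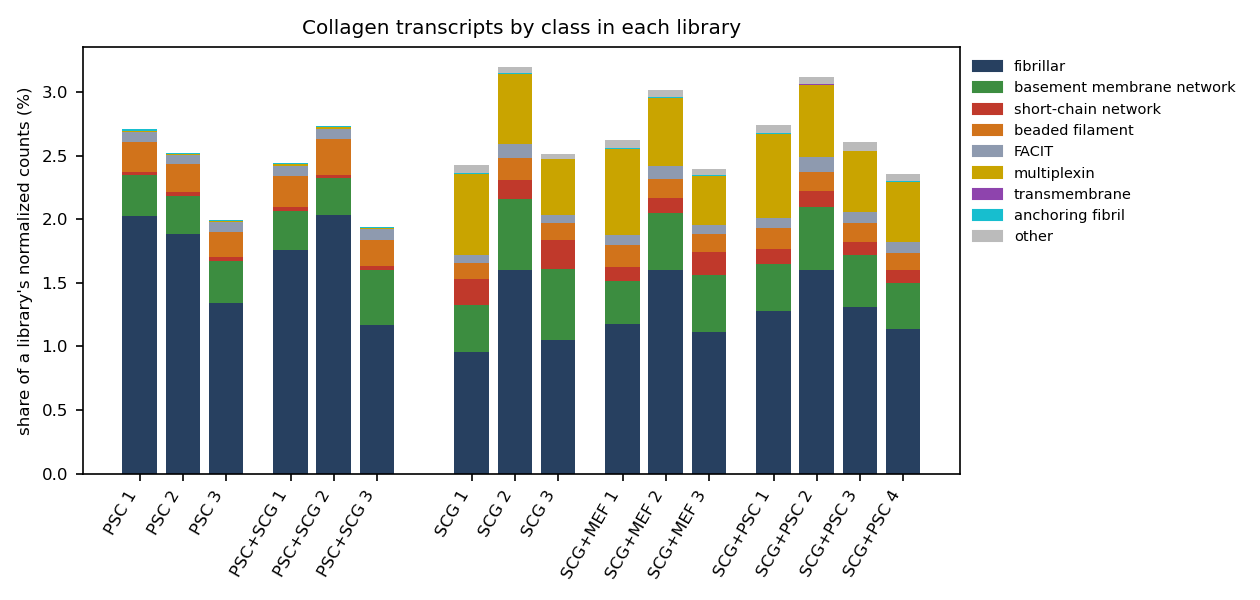
Share of each library's normalized counts taken by collagen genes, in percent, stacked by class, with 1 bar for each of the 16 libraries. The total lies between 1.94% and 2.73% in the PSC libraries, where fibrillar chains fill most of the bar, and between 2.36% and 3.19% in the nerve libraries, where the multiplexin band is wide.

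In stellate cells Col1a1, the α1 chain of type I collagen, was the highest member. Levels were compared between genes as normalized counts per kilobase of exon. Col1a1 stood at 46275 ± 8700 per kilobase in PSC and 42768 ± 9603 in PSC+SCG (SD, n = 3 each), and Col1a2, its partner chain, at 16667 ± 3246 and 15373 ± 4520. These 2 genes were followed by Col4a1, Col6a1, Col4a2, Col5a2, Col3a1 and Col5a1, in the same order in both groups. In PSC only Col4a1 and Col6a1, and Col3a1 and Col5a1, stood closer to each other than the larger of their SDs, and in PSC+SCG all neighbors from Col4a1 down did. The same 8 genes were highest when the longest transcript was used as the length. Counted by the higher group mean of normalized counts, 14 members reached 10000, 5 lay between 1000 and 10000, 16 between 10 and 1000, and 9 under 10. Col9a1, a FACIT chain of cartilage, and Col13a1, a transmembrane collagen, were listed at 0 in all 6 PSC libraries.

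In the explants Col18a1, the multiplexin whose end fragment is known as endostatin, was the highest member in all 3 groups. It stood at 22686 ± 4989 per kilobase in SCG (n = 3), 23499 ± 6740 in SCG+MEF (n = 3) and 23274 ± 4276 in SCG+PSC (n = 4), with SDs given after each mean. Below it, Col1a1 and Col4a1 exchanged places among the groups within their SD. In SCG, Col10a1, the network collagen of hypertrophic cartilage, came next with 11972 ± 4301 per kilobase, and in SCG+PSC it stood at 4679 ± 1145, below Col5a1. The 8 highest over all groups were Col18a1, Col1a1, Col4a1, Col1a2, Col5a2, Col10a1, Col3a1 and Col4a2. With the longest transcript as length these 8 were the same genes in another order, with Col1a2 second. By the highest group mean of normalized counts, 18 members reached 10000, 4 lay between 1000 and 10000, 19 between 10 and 1000, and 3 (Col4a3, Col6a6 and Col9a1) under 10. Col18a1 shares 12.7% of its exon bases with Slc19a1 and Col10a1 shares 20.8% with Nt5dc1, both on the opposite strand, and Col1a2 shares 10.3% with Gm66266 there, and the reads were counted by strand.

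**Figure D2:**
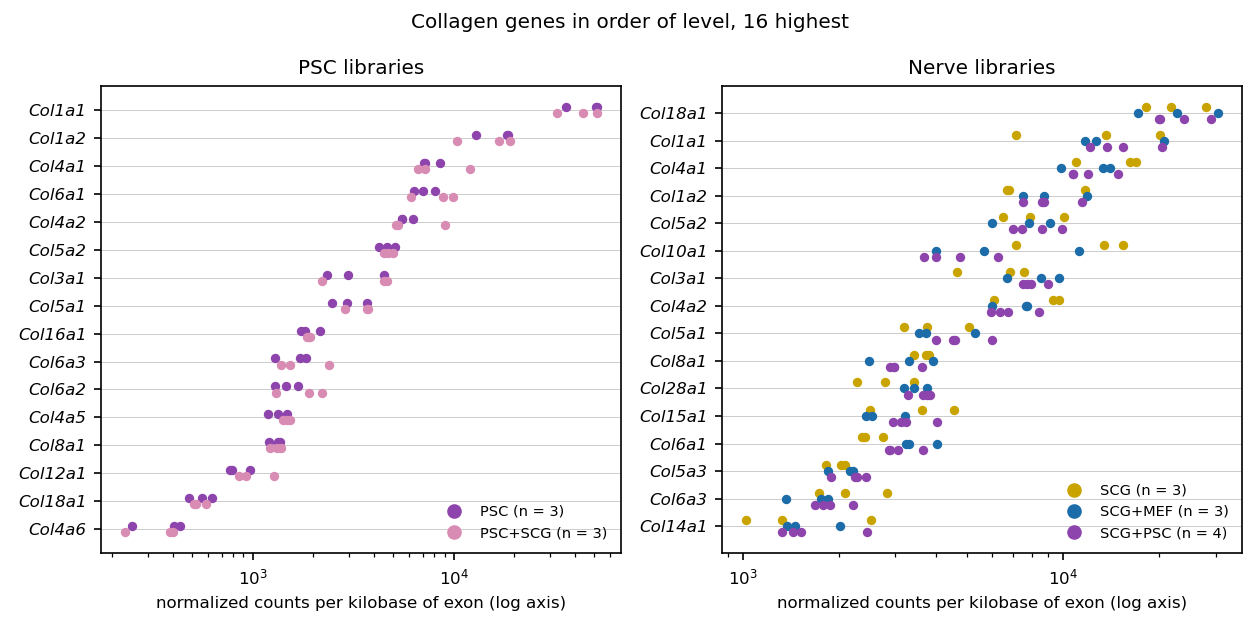
Normalized counts per kilobase of exon on a log axis for the 16 highest collagen genes of each table, 1 point per library and 1 color per group. Col1a1 leads in the PSC libraries and Col18a1 in the nerve libraries, where the 3 SCG points of Col10a1 reach farther right than the SCG+PSC points.

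The ratio of partner chains was narrow within a table for some pairs and wide for others. The ratio of Col4a1 to Col4a2, the common pair of basement membrane chains, ranged from 1.29 to 1.37 over the 6 PSC libraries and from 1.65 to 1.83 over the 10 nerve libraries, per kilobase. The ratio of Col1a1 to Col1a2 ranged from 2.63 to 3.16 and from 1.065 to 1.996. The lowest of these values belonged to SCG replicate 1. The size of these ratios depends on the gene length chosen, and with the longest transcript Col1a1 to Col1a2 ranged from 1.25 to 1.503 in PSC libraries and from 0.507 to 0.950 in nerve libraries. The ratio of Col4a5 to Col4a6 ranged from 3.28 to 6.09 over the 6 PSC libraries and from 22.8 to 144.8 over the 9 nerve libraries in which Col4a6 was above 0, where Col4a6 had few counts. Col4a5 and Col4a6, the X-linked pair known from Alport syndrome, lie head to head on chromosome X with 1281 bases between their starts. Col4a5 averaged 12505 ± 1372 normalized counts in PSC and 13800 ± 606 in PSC+SCG, and Col4a6 averaged 2904 ± 796 and 2723 ± 763 (SD, n = 3 each). Per kilobase, Col4a1 exceeded Col4a5 by 4.46 to 8.56 times in PSC libraries and by 169 to 621 times in nerve libraries. Of the other head-to-head pairs, Col4a1 and Col4a2 on chromosome 8 were both high in both tables, and Col4a3 and Col4a4 on chromosome 1 averaged at most 4.38 and 8.12 in the PSC groups.

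Whether stellate cells altered their collagen genes near sympathetic explants was asked by PSC+SCG against PSC. Called here means that the adjusted p did not exceed 0.05 and the log2 fold change was 0.5 or more in either direction. No member passed this threshold in limma on log2(normalized count + 1) with Benjamini-Hochberg adjustment over all genes tested, and 0.0% of 14541 protein-coding genes did. Of the 44 members, 41 were tested, and Col9a1, Col13a1 and Col26a1 were too low. Of those tested, 30 were higher and 11 lower in PSC+SCG, and 2 (Col23a1 and Col24a1, both higher) had an unadjusted p under 0.05, against 1.41% of the protein-coding genes. The median log2 fold change was 0.14 for the members and 0.01 for the protein-coding genes.

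With the replicate number as a block, which compares same-numbered libraries, 1 of 41 members was past the threshold as higher and 0 as lower, against 0.447% and 0.0756% of the protein-coding genes. It was Col24a1, a minor fibrillar chain known from bone and cornea, on chromosome 3. It read 255, 148 and 146 normalized counts in PSC replicates 1, 2 and 3 and 471, 255 and 368 in PSC+SCG. PSC+SCG was higher in all 3 same-numbered pairs, while the groups touched, since PSC replicate 1 lay just above PSC+SCG replicate 2. Its mean was 1.99 times as high, a log2 fold change of 0.995 ± 0.30 (SE) with an adjusted p of 0.9999 in limma without the block and ± 0.17 with an adjusted p of 0.00420 with it. Leaving out PSC replicate 1 or PSC+SCG replicate 1 from the blocked fit took the adjusted p to between 0.0510 and 0.0619, and the other 4 omissions left it past the threshold. Each omission leaves the partner alone in its block, where it adds nothing to the difference, and so amounts to leaving out a pair. Over its alternatives the adjusted p ranged from 0.00420 to 0.9999. Col24a1 lies from 144998233 to 145257766 on the + strand.

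Col23a1, a transmembrane collagen, was the only member whose PSC and PSC+SCG libraries did not overlap, against 2.90% of protein-coding genes that were higher without overlap, and no member was lower without overlap, against 1.47%. It read 129, 126 and 104 normalized counts in PSC and 246, 271 and 135 in PSC+SCG. Replicates 3 were the lowest of both groups and their pair differed least. It differed by a log2 fold change of 0.80 ± 0.29 (SE), and the adjusted p in limma with the replicate block was 0.0701. With replicates 1 and 2 alone and the block, an alternative chosen after seeing the data, Col23a1 and Col24a1 were both past the threshold.

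The chains that stellate cells made most of did not differ beyond the spread between libraries. Col1a1 read 339332, 334353 and 237983 normalized counts in PSC and 288107, 339977 and 214481 in PSC+SCG. Its log2 fold change of −0.12 had a 95% interval from −0.73 to 0.49 without the block and from −0.44 to 0.19 with it. Col1a2 gave −0.14 with intervals from −0.80 to 0.51 and from −0.44 to 0.15. Without PSC+SCG replicate 3 the values were 0.06 for Col1a1 and 0.12 for Col1a2. Among the other members named for their size, Col15a1 (0.90), Col14a1 (0.74) and Col28a1 (0.56) were higher and Col9a3 (−0.39), Col8a2 (−0.38) and Col17a1 (−0.20) lower on the log2 scale. All 6 averaged under 240 normalized counts in both groups, and none was past the threshold in any alternative.

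By class, the medians of the log2 fold change in PSC+SCG against PSC lay between −0.12 for the single anchoring fibril chain and 0.56 for the single tested member without a class. All 6 beaded filament chains were higher, by 0.02 to 0.66, with a median of 0.23 and 0 past the threshold with or without the block. Of these, Col6a5 (0.66) and Col6a6 (0.53) had group means under 10, and Col6a1, Col6a2 and Col6a3 were higher by 0.10 to 0.27. The 11 fibrillar chains had a median of 0.17, and 8 of them were higher. The 6 basement membrane chains ran from −0.64 (Col4a4) to 0.34 (Col4a3), both with group means under 10, and the 4 well-measured chains among them from −0.10 to 0.15.

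The values of some members stood apart by replicate number in stellate cells. Number 3 had the lowest mean in 29 of 41 members and in 6198 of 14541 protein-coding genes. Col1a1 was lowest in replicate 3 of both groups, Col3a1 (46026, 30517 and 24115 normalized counts in PSC) likewise, and Col9a3 read 296, 304 and 116 in PSC and 227, 266 and 76.6 in PSC+SCG. Col4a1 ran the other way, with 63836 in PSC replicate 3 and 90005 in PSC+SCG replicate 3 against 49450 to 53927 in the other 4 libraries. The summed level of the 7 markers of pericytes and smooth muscle lay between 42414 and 50853 in PSC and reached 76783 in PSC+SCG, and that of the 7 fibroblast markers lay between 20548 and 32714 in PSC and between 17203 and 42403 in PSC+SCG. The 6 epithelial markers summed to 172 to 262 in PSC and 317 to 352 in PSC+SCG, while Cdh1, Epcam, Krt8 and Krt18 were under 10. The part of these lists in the values was not tested.

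**Figure D3:**
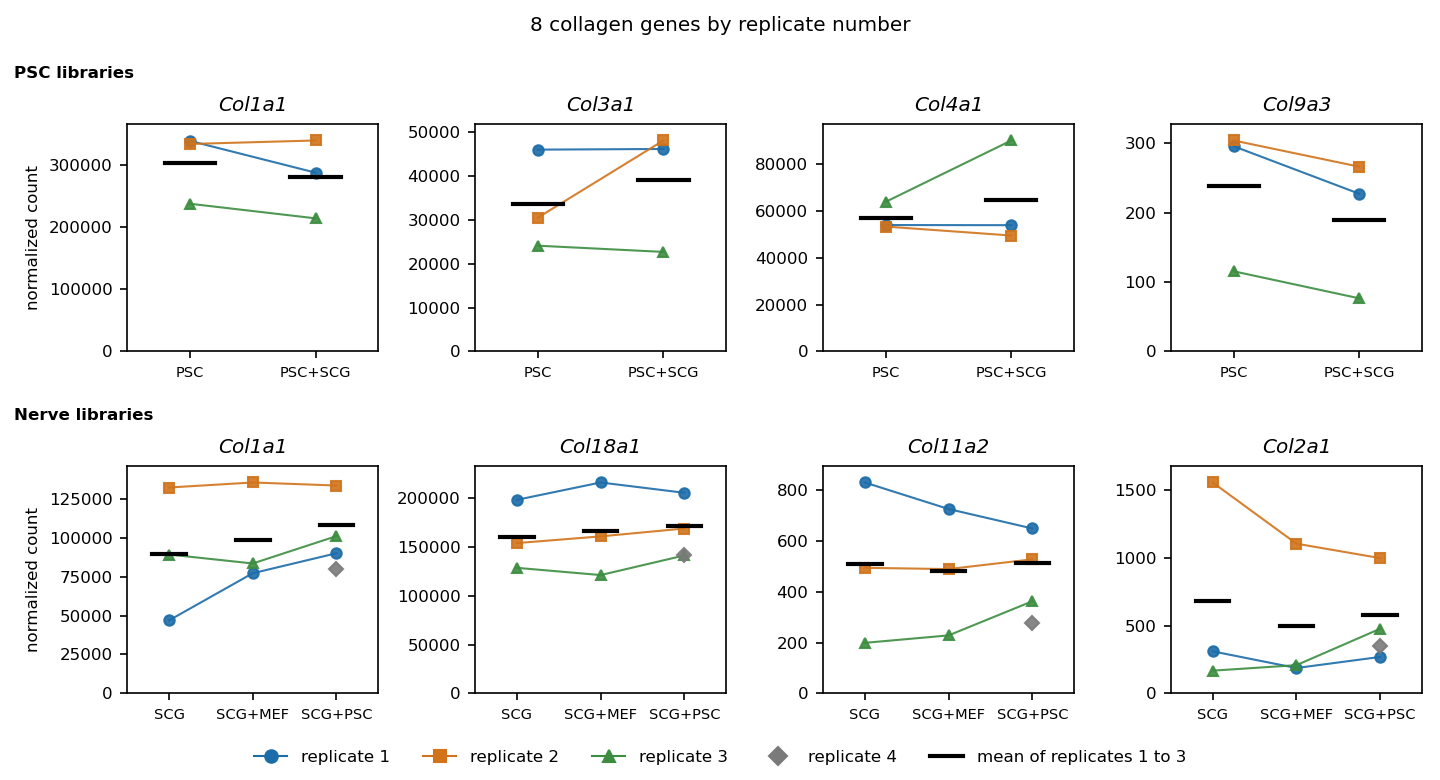
Normalized counts of 8 collagen genes in every library, PSC libraries in the upper row and nerve libraries in the lower, with same-numbered libraries joined, SCG+PSC replicate 4 unjoined and black bars for the mean of replicates 1 to 3. The genes were picked after their values were seen, to show lines that mostly keep their order across groups, such as Col18a1, highest in replicate 1 and lowest in replicate 3 of all 3 nerve groups.

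In the explants the chains with such an order differed in which number was highest. Col1a1 read 132193, 135431 and 133462 normalized counts in replicates 2 of SCG, SCG+MEF and SCG+PSC and 46899 to 101002 in the other 7 nerve libraries. Col2a1, the cartilage fibril chain, read 1558, 1106 and 1000 in the same replicates 2 and 168 to 478 elsewhere. Both genes were thus highest in the 3 replicates 2, whatever the coculture. Col11a2, chosen after its values were seen, read 829, 494 and 199 in SCG and was highest in replicate 1 of each group, and Col3a1, with 48021, 77418 and 70193 in SCG and 68951, 87958 and 100095 in SCG+MEF, kept no such order.

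Whether ganglia altered their collagen genes near stellate cells was asked by SCG+PSC against SCG, in a model of the 9 nerve libraries with replicates 1 to 3. All 44 members were tested, and 0 were past the threshold in limma with Benjamini-Hochberg adjustment, against 0.0189% of 15908 protein-coding genes. None was in edgeR or DESeq2 without a block either. Of 15960 protein-coding genes, edgeR called 3 as higher, and DESeq2 51 as higher and 7 as lower. The unadjusted p was under 0.05 for 6 members in limma, 3 in each direction, for 6 in edgeR and for 5 in DESeq2, against 4.14% of the protein-coding genes in limma. With the replicate block 3 members were past the threshold as lower and 0 as higher, against 0.182% and 1.76% of the protein-coding genes. The same 3, Col10a1, Col4a5 and Col25a1, were lower in SCG+PSC without overlap, against 2.78%, and 3 were higher without overlap (Col5a3, Col6a1 and Col16a1, the first 2 named after their values were seen), against 4.33%. These counts use replicates 1 to 3. With SCG+PSC replicate 4, at 12994 for Col5a3 and 10017 for Col16a1, both genes overlapped SCG, while Col6a1 and the 3 lower genes did not. The median log2 fold change was 0.14 for the members, of which 26 were higher and 18 lower, and 0.01 for the protein-coding genes.

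Col10a1 lies on chromosome 10 from 34265971 to 34273081 (GRCm39, + strand). It read 42011, 22390 and 48230 normalized counts in SCG, 17759, 12602 and 35263 in SCG+MEF, and 19599, 14991, 11531 and 12572 in SCG+PSC replicates 1 to 4. Every SCG+PSC library, replicate 4 included, lay below every SCG library, and SCG+MEF overlapped both. The log2 fold change of SCG+PSC against SCG was −1.25 ± 0.38 (SE), or 0.421 of the level, with an adjusted p of 1 in limma without the block and 0.0458 with it. The 3 pairs differed by −1.10, −0.58 and −2.06. In SCG+MEF against SCG the value was −0.84 ± 0.38 with a blocked adjusted p of 0.454 in limma. That comparison was past the threshold in limma with the block where SCG+PSC replicate 3 had a block of its own (adjusted p = 0.0143) or was left out (adjusted p = 0.0114). A library in a block of its own adds nothing to a difference, so these fits are nearly the same. SCG+PSC against SCG+MEF gave −0.41 ± 0.38 with a blocked adjusted p of 0.610. The antisense neighbor Nt5dc1 read 179 to 378 in the 10 nerve libraries.

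The blocked call of Col10a1 held in 3 of 9 fits that left out 1 library. Without SCG replicate 1, 2 or 3, SCG+MEF replicate 1 or 2, or SCG+PSC replicate 1 the adjusted p lay between 0.0544 and 0.286. With the block on whole reads the adjusted p was 0.0546 in edgeR and 0.131 in DESeq2. Over all alternatives other than omissions with the block it ranged from 0.0286 to 1.

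Col4a5 lies on chromosome X from 140258354 to 140472231 (+ strand). It read 540, 847 and 560 normalized counts in SCG, 545, 521 and 533 in SCG+MEF, and 314, 516, 186 and 161 in SCG+PSC. All 4 SCG+PSC libraries lay below the SCG and the SCG+MEF libraries, replicate 2 by a few counts. Against SCG the log2 fold change was −1.03 ± 0.32 (SE), with an adjusted p of 1 in limma without the block and 0.0355 with it. The test of the difference between the cocultures, SCG+PSC against SCG+MEF, gave −0.78 ± 0.32 with a blocked adjusted p of 0.135 in limma. It was past the threshold in DESeq2 with the block (adjusted p = 0.0104) and in the blocked limma fit without SCG+MEF replicate 2 (adjusted p = 0.0440) or SCG+PSC replicate 2 (adjusted p = 0.0222). Its neighbor Col4a6 read 20.2, 13.3 and 4.10 in SCG, 9.12, 13.1 and 18.2 in SCG+MEF and 7.67, 3.04, 5.34 and 0 in SCG+PSC, with a blocked adjusted p of 0.637 against SCG. Col4a6 was not called, and at such low counts this does not show that it was unchanged.

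With the block, Col4a5 was also past the threshold on whole reads in edgeR (adjusted p = 0.0368) and DESeq2 (adjusted p = 1.41e-04), and over the alternatives the adjusted p ranged up to 1. The limma call with the block held in 2 of 9 fits without 1 library, those without SCG+MEF replicate 2 and without SCG+PSC replicate 2. The other 7 gave adjusted p between 0.0669 and 0.241.

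Col25a1, a transmembrane collagen of neurons whose shed part is found in amyloid plaques, lies on chromosome 3 from 129925150 to 130393532 (+ strand). It read 653, 631 and 461 normalized counts in SCG, 283, 205 and 236 in SCG+MEF, and 325, 418, 212 and 209 in SCG+PSC. The SCG libraries were the 3 highest of the 10, and the cocultures overlapped each other. Against SCG the log2 fold change was −0.91 ± 0.25 (SE) in SCG+PSC and −1.26 ± 0.25 in SCG+MEF, with adjusted p of 1 and 0.836 in limma without the block and 0.0290 and 0.0160 with it. Since both comparisons use the same SCG libraries, they are not independent of each other. SCG+PSC against SCG+MEF gave 0.36 ± 0.25 with a blocked adjusted p of 0.482.

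On whole reads with the block Col25a1 was past the threshold in both comparisons in edgeR (adjusted p = 0.0272 and 0.0143) and in DESeq2 (adjusted p = 2.35e-04 and 7.87e-08), the lowest of alternatives that ranged up to 1. DESeq2 without the block also called it in SCG+MEF against SCG (adjusted p = 0.00423). The limma call with the block held in 3 of 9 fits in each comparison. It was lost without any of the SCG replicates, without SCG+MEF replicate 1, and without SCG+PSC replicate 1 or 3 in the first (adjusted p from 0.0635 to 0.147). It was lost without any SCG or SCG+MEF replicate in the second (adjusted p from 0.0578 to 0.129). The 9 neuron markers summed to 113690 to 261643 in SCG, 165350 to 246490 in SCG+MEF and 130543 to 230417 in SCG+PSC, so the groups overlapped. All 9 were higher in SCG+MEF against SCG (median log2 fold change 0.153) and lower in SCG+PSC against SCG+MEF (median −0.175). In SCG+PSC against SCG 5 were higher and 4 lower (median 0.016), and 0 were past the threshold with the block in any of these comparisons. The 7 markers of pericytes and smooth muscle summed to 56426 to 68408 in SCG, 40326 to 56167 in SCG+MEF and 41169 to 60441 in SCG+PSC. Of these 7, 6 were lower in SCG+PSC than in SCG and 5 in SCG+MEF, with 0 past the threshold with the block. The 6 endothelial markers summed to 3429 to 4345 in SCG and 3972 to 4192 in SCG+PSC. All 6 had an unadjusted p under 0.05 in SCG+PSC against SCG, with Pecam1, Cdh5, Kdr, Tek and Cldn5 higher and Emcn lower, a median log2 fold change of 0.87 and 0 past the threshold with or without the block. The part of these cells in the collagen values was not tested.

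**Figure D4:**
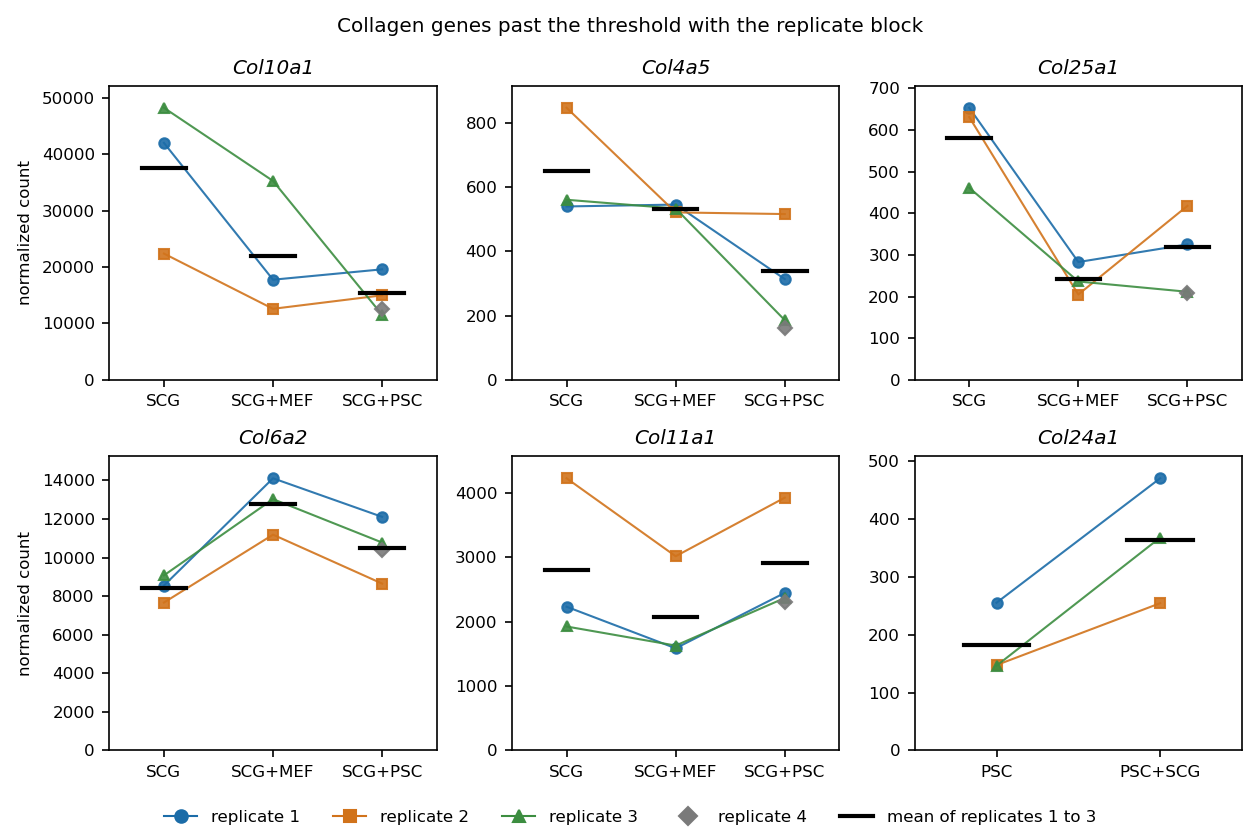
Normalized counts, from 0, of the 6 collagen genes past the threshold in any comparison with the replicate block, 1 point per library, with same-numbered libraries joined and black bars for the mean of replicates 1 to 3. Col10a1, Col4a5 and Col25a1 have their highest mean in SCG, Col6a2 has it in SCG+MEF, Col11a1 is lower in SCG+MEF than in SCG+PSC within every number, and Col24a1 is higher in PSC+SCG within every number.

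Among the members named for their size in SCG+PSC against SCG, Col13a1 (0.98), Col9a2 (0.78), Col6a5 (0.65), Col22a1 (0.50) and Col16a1 (0.41) were higher and Col6a4 (−0.89) lower on the log2 scale. Col16a1, a FACIT chain at 12178, 12592, 11992 and 10017 normalized counts in SCG+PSC and 9965, 11240 and 6999 in SCG, was the only one of them above 100 counts, and its log2 fold change had a 95% interval from −0.12 to 0.94 without and from 0.12 to 0.70 with the block, where the adjusted p was 0.231. The direction of Col6a5 and of Col22a1 rested on SCG replicate 3, without which their log2 fold changes were −0.10 and −0.03. By class, the basement membrane chains had the lowest median of the classes, −0.34, with 5 of 6 lower, and FACIT a median of 0.36, with 7 of 9 higher. Among these chains Col4a3 and Col9a1 averaged under 10 normalized counts in every group. Col4a4, Col4a6 and Col19a1 read at most 35.2 in any nerve library. The 11 fibrillar chains had a median of 0.22, with 9 higher and 0 past the threshold with or without the block. Col18a1, at 198198, 153930 and 128568 normalized counts in SCG and 205407, 168833, 141271 and 142023 in SCG+PSC, differed by 0.11 with an interval from −0.42 to 0.64 without and from −0.09 to 0.31 with the block.

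NIH 3T3 cells served as the control fibroblasts. In SCG+MEF against SCG 0 of 44 members were past the threshold in limma and in edgeR without the block, against 0.0189% of the protein-coding genes in limma. DESeq2 without it called 1 member, Col25a1, and of 15960 protein-coding genes 18 as higher and 3 as lower. The unadjusted p was under 0.05 for 4 members in limma, 4 in edgeR and 6 in DESeq2, against 2.44% of the protein-coding genes in limma. With the block 1 member was higher and 1, Col25a1, lower, against 0.17% and 0.0691% of the protein-coding genes. Without overlap 2 members, Col6a1 and Col6a2, were higher and 1, Col25a1, lower, against 2.95% and 2.04%. The members' median log2 fold change was −0.03, with 21 higher and 23 lower, and that of the protein-coding genes was 0.03.

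The higher member was Col6a2, the α2 chain of type VI collagen, on chromosome 10 from 76429660 to 76459549 (− strand). It read 8546, 7664 and 9073 normalized counts in SCG, 14108, 11184 and 13027 in SCG+MEF, and 12108, 8648, 10777 and 10371 in SCG+PSC. SCG+MEF was above every SCG library, and SCG+PSC overlapped both. The log2 fold change of SCG+MEF against SCG was 0.60 ± 0.15 (SE), with an adjusted p of 1 in limma without the block and 0.00935 with it, and SCG+PSC against SCG gave 0.31 ± 0.15 with a blocked adjusted p of 0.0868. Col6a1, the α1 chain, stood at 0.49 ± 0.13 in SCG+MEF against SCG, under the fold of the threshold, with a blocked adjusted p of 0.103, and was past the threshold in the blocked fit without SCG replicate 2. Col6a3, the α3 chain of the same trimer, stood at −0.40 ± 0.19, and its blocked adjusted p was 0.418.

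The Col6a2 call was also made on whole reads with the block in edgeR (adjusted p = 0.00783) and DESeq2 (adjusted p = 3.71e-08), and the adjusted p ranged up to 1 over the alternatives. In limma it was lost without SCG replicate 1 or 3 or any SCG+MEF replicate (adjusted p from 0.0548 to 0.118). In the same libraries the 7 fibroblast markers summed to 5718 to 7911 in SCG, 9557 to 14446 in SCG+MEF and 7888 to 11842 in SCG+PSC, with Dpt under 10 in all groups. Of these markers, Dcn and Lum were past the threshold with the block in SCG+MEF against SCG, where 0.17% of the protein-coding genes were as higher. In SCG+PSC against SCG, 2 of the 7 markers were past the threshold with the block as higher, against 1.76%. Dcn read 2544, 2856 and 3012 in SCG, 3913, 4224 and 6170 in SCG+MEF and 3761, 3059, 5538 and 4848.5 in SCG+PSC. The part of these cells in the result was not tested.

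The other members named for their size in SCG+MEF against SCG were Col8a2 (0.90), Col19a1 (0.54) and Col13a1 (0.47), all under 70 normalized counts in both groups, and Col20a1 (−0.50), Col11a1 (−0.41) and Col9a3 (−0.41). None was past the threshold in an alternative. By class, the beaded filament chains ran from −0.98 (Col6a6, under 10 counts) to 0.60, and 5 of 6 basement membrane chains were lower, with a median of −0.24. Of those 6, Col4a3 averaged under 10 counts, and Col4a4 and Col4a6 read at most 35.2 in any nerve library.

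SCG+PSC against SCG+MEF tested whether the 2 cocultures differed from each other. Without the block 0 of 44 members were past the threshold in limma, edgeR and DESeq2. Of the protein-coding genes, limma called 0.0%, and DESeq2 called 14 of 15960 as higher and 4 as lower. An unadjusted p under 0.05 was found for 1 member (Col4a5) in limma, 0 in edgeR and 1 in DESeq2, against 3.07% of the protein-coding genes in limma. With the block 1 member was higher and 0 lower, against 0.955% and 0.182%. Without overlap 3 were higher (Col5a3, Col13a1 and Col16a1, the first and last named after their values were seen) and 2 lower (Col4a5 and Col4a6), against 3.33% and 3.68%. These counts use replicates 1 to 3, and with SCG+PSC replicate 4 Col5a3 and Col16a1 overlapped SCG+MEF. The members' median was 0.18, with 30 higher and 14 lower, and that of the protein-coding genes was −0.02.

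The member past the threshold was Col11a1, a minor fibrillar chain that helps to set fiber width, on chromosome 3 from 113824134 to 114014367 (+ strand). It read 2234, 4230 and 1926 normalized counts in SCG, 1588, 3018 and 1630 in SCG+MEF, and 2449, 3929, 2369 and 2304 in SCG+PSC. Replicates 2 were the highest of every group, so the groups overlapped, while within each number SCG+PSC lay above SCG+MEF, by 0.62, 0.38 and 0.54 on the log2 scale. The log2 fold change was 0.51 ± 0.34 (SE) with an adjusted p of 1 in limma without the block, and ± 0.09 with an adjusted p of 0.0285 with it. Against SCG the values were 0.11 ± 0.34 in SCG+PSC and −0.41 ± 0.34 in SCG+MEF, with blocked adjusted p of 0.736 and 0.132. On whole reads with the block the difference between the cocultures was past the threshold in edgeR (adjusted p = 0.0239) and DESeq2 (adjusted p = 0.0001004), and the adjusted p ranged up to 1 over the alternatives. In limma it was lost without any SCG+MEF replicate and without SCG+PSC replicate 1 or 3 (adjusted p from 0.0588 to 0.239).

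Among the members named for their size in SCG+PSC against SCG+MEF, Col4a6 (−1.21), Col19a1 (−0.62), Col8a2 (−0.54) and Col6a4 (−0.49) were lower and Col9a3 (0.60), Col2a1 (0.52), Col13a1 (0.51) and Col22a1 (0.49) higher. None of these 8 was past the threshold in an alternative. All 3 short-chain network members were lower, Col8a1 by less than 0.01 and Col8a2 by the most, and 9 of 11 fibrillar chains higher, with a median of 0.19.

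**Figure D5:**
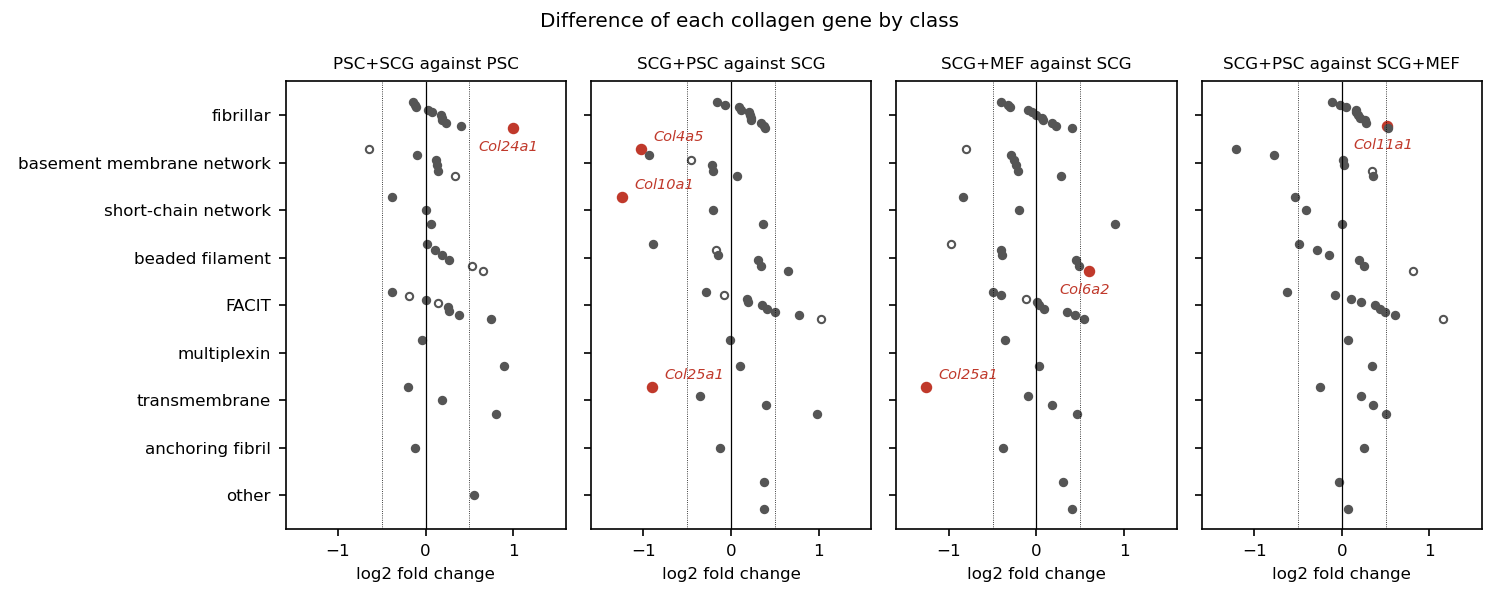
Log2 fold change without the block of each tested collagen gene in the 4 comparisons, by class, with filled points for genes whose mean reached 10 in a group, open points for lower genes, and red named points for genes past the threshold with the replicate block, and dotted lines at 0.5 on either side of 0. Most points lie between the dotted lines, and the 3 red points of SCG+PSC against SCG lie to the left.

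The stretches just before a RefSeq transcript start of the 6 genes past the threshold are shown, since transcription of the chains begins near such starts. They are 100 bases each on GRCm39, read on the gene's strand from RefSeq's promoter table (GRCm38.p6), located on GRCm39 by exact match, and cut where an annotated exon starts. Col25a1's ends 46 bases before the start of its reference transcript and lies inside the annotated span of the gene, which begins farther upstream, so it does not precede the gene's first exon. The positions are chr10:34265871-34265970 (+) for Col10a1, chrX:140258254-140258353 (+) for Col4a5, chr3:129974394-129974493 (+) for Col25a1, chr10:76459550-76459649 (−) for Col6a2, chr3:113824034-113824133 (+) for Col11a1 and chr3:144998133-144998232 (+) for Col24a1. Capitals mark matches on either strand to 5 short motifs. The TATA box was searched as TATAAA. The CCAAT box was searched by the letters of its name. The GC box was searched as GGGCGG. The AP-1 site was searched as TGANTCA. The RUNX site was searched as TGTGGT, and no 2 of these motifs overlapped in the stretches shown.
Col10a1: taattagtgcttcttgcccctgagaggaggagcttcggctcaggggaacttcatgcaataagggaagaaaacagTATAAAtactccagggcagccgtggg
Col4a5: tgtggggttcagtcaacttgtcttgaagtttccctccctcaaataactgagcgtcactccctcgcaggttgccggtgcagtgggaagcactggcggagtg
Col25a1: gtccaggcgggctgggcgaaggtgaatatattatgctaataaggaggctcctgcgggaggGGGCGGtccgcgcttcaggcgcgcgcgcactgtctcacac
Col6a2: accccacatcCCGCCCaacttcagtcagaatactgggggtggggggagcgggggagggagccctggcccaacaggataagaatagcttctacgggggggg
Col11a1: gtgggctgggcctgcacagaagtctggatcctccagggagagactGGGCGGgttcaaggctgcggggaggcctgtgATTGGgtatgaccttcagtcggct
Col24a1: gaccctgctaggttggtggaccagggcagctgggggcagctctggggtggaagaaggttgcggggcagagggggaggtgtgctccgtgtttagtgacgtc
A TATA box stood 26 to 21 bases before the start in Col10a1, a GC box in Col25a1, Col6a2 and Col11a1, and a CCAAT box in Col11a1, while neither Col4a5 nor Col24a1 held any of these letters in the stretch shown. Over the 100 bases before all 32851 RefSeq starts of the table, 5.6% held the TATA box, 18.9% the CCAAT box, 24.7% the GC box, 2.7% the AP-1 site and 5.6% the RUNX site. Over the 38 starts of 35 members in that table the shares were 5.3%, 10.5%, 47.4%, 2.6% and 5.3%. A match describes these letters and not a bound site.

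The enzymes and receptors around collagen were followed by fixed lists, chosen with earlier results of these data known. In PSC+SCG against PSC 0 genes of the 4 lists were past the threshold without the block. With it 3 of 16 tested genes of collagen degradation were higher, Mmp3, Mmp10 and Mmp13, which are matrix metalloproteinases, and 0 genes were called of 19 in modification, folding and export, 12 in procollagen cleavage and cross-linking and 9 receptors. Of the protein-coding genes, 0.447% were past the threshold with the block as higher and 0.0756% as lower. Mmp3, stromelysin 1, read 1004, 377 and 271 normalized counts in PSC and 2828, 4228 and 1056 in PSC+SCG, a log2 fold change of 2.31 ± 0.57 (SE) with a blocked adjusted p of 1.355e-06 in limma. Mmp10, stromelysin 2, read 71.9, 44.3 and 47.2 in PSC and 109, 143 and 137 in PSC+SCG (1.26 ± 0.29, blocked adjusted p = 0.0198 in limma). Neither of the 2 overlapped between the groups. Mmp13, a collagenase, overlapped, with 123, 97.6 and 23.1 in PSC and 196, 235 and 64.9 in PSC+SCG (1.13 ± 0.68, blocked adjusted p = 0.0223 in limma).

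In the explants, 0.0189% of the protein-coding genes were past the threshold without the block in SCG+PSC against SCG. The collagenase Mmp8 was among them, the only gene of these lists to be so in any comparison. It read 15.2, 8.56 and 11.3 normalized counts in SCG, 62.9, 74.5 and 55.8 in SCG+MEF and 155, 70.0, 114 and 110 in SCG+PSC, so both cocultures lay above SCG. Its log2 fold change was 3.13 ± 0.35 (SE) in SCG+PSC (adjusted p = 0.0256 in limma without the block) and 2.39 ± 0.35 in SCG+MEF (adjusted p = 0.143 without and 0.00885 with the block). With the block, Mmp12, a macrophage elastase, Adamts14, which cleaves the amino end of procollagens, and Creb3l1, a transcription factor for collagen secretion, were also higher in SCG+PSC against SCG, and Adamts14 in SCG+PSC against SCG+MEF. Of the protein-coding genes, 1.76% were past the threshold with the block as higher in the first of these comparisons and 0.955% in the second. Adamts14 read 553, 569 and 455 in SCG, 619, 559 and 489 in SCG+MEF and 944, 1000, 713 and 593 in SCG+PSC, with log2 fold changes of 0.74 ± 0.17 and 0.66 ± 0.17 and blocked adjusted p of 0.00620 and 0.0219 in limma. None of the 10 tested receptors was called in any nerve comparison with or without the block. The macrophage markers summed to 5418 to 8632 in SCG, 5684 to 8315 in SCG+MEF and 6029 to 7587 in SCG+PSC, and the groups overlapped. Of these 7 markers, 3 were higher and 4 lower in SCG+PSC against SCG, with a median log2 fold change of −0.001. Mrc1 was past the threshold with the block as higher in that comparison (adjusted p = 0.00999 in limma). It read 149, 283 and 163 in SCG, 346, 361 and 266 in SCG+MEF and 390, 427, 452 and 513 in SCG+PSC. The part of these cells in the values was not tested.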

How the data were processed

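RNA was sequenced in bulk from 16 libraries. The authors aligned the reads with STAR 2.7.10b to GRCm39, counted them per gene by strand on GENCODE M33 and divided each library by its DESeq2 1.38.3 size factor, separately for the PSC and the nerve libraries. The deposited values are thus a signal, the normalized counts of 56941 genes. Whole reads were recovered in 14 libraries and not accepted for PSC+SCG replicate 1 and SCG+PSC replicate 4, so no test on reads was run on the PSC table. Recovered reads ranged from 31900689 to 41632381.

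Log2(normalized count + 1) of genes with a sum of at least 10 over the libraries of the model was tested with limma 3.58.1 (R 4.3.3, trended empirical Bayes, Benjamini-Hochberg adjustment over all genes tested), with calls made where the adjusted p did not exceed 0.05 and the log2 fold change was 0.5 or more in either direction. The study's model held a batch date, which the labels tie to no library. Same-numbered libraries deviated together, with correlations of 0.231 to 0.475 in 3 PSC pairs and 0.135 to 0.382 in 9 nerve pairs. Other pairs gave −0.349 to 0.121 and −0.256 to −0.004. Deviations from a group's mean cancel out within the group, so positive values for same-numbered pairs push the other pairs below them. The values of the other pairs are thus not separate support for the block. The fit with the replicate number as a block is given wherever it changed a call. The pairing rests on the numbers in the titles and the correlations of same-numbered libraries. Other alternatives were edgeR 4.0.16 and DESeq2 1.42.0 on whole reads, pseudocounts, filters, quantile normalization, replicates 3 apart, other SCG+PSC libraries and leaving out each library. Apart means a block of its own, for both replicates 3 of the PSC libraries and for SCG+PSC replicate 3 alone of the nerve libraries. Such a library adds nothing to a difference, so these fits are nearly those without it. The limma fits were also run on simulated data with known fold changes and the same noise setting for all genes. Where a replicate effect was put in, it followed the replicate number, so the block was not checked under a wrong pairing. Fold changes of low genes are understated by the pseudocount.

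Gene lengths were exon bases of GENCODE M39 on GRCm39. Members named are those past the threshold, up to 5 that differed most either way among genes with a mean of at least 10, the 8 highest per kilobase, and head-to-head pairs. The members and lists were chosen with earlier results of these data known. Protein sequences were not used here. The authors' fold changes were not used.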

Additional observations from a re-analysis of the deposited data

Results flagged for a closer look

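Both results here concern Col11a1 and are given for a closer look. In SCG+PSC, replicate 2 read 3929 normalized counts and lay far from the other 3 libraries, at 2304 to 2449, with a gap of 0.911 of the group's range which is above the critical value for 4 samples. Replicates 2 were also the highest in SCG and SCG+MEF. Over the 27 collagen genes examined in this way, chance alone gives about 1 such group in 20.

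The coculture effects on Col11a1 differed from each other when the replicate block was used, with SCG+PSC above SCG+MEF by a log2 fold change of 0.51 (adjusted p = 0.0285 in limma). Without the block the same difference had an adjusted p of 1.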

How the results depend on the processing

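Without a block, every setting of limma and edgeR gave 0 collagen genes past the threshold in all 4 comparisons, and DESeq2 gave 1 in SCG+MEF against SCG (Col25a1). With the replicate block the counts were 1 in PSC+SCG against PSC, 3 in SCG+PSC against SCG, 2 in SCG+MEF against SCG and 1 in SCG+PSC against SCG+MEF. With both replicates 3 of the PSC libraries, and SCG+PSC replicate 3 alone of the nerve libraries, fitted apart as well, they were 2, 1, 3 and 0. In that fit Col10a1 stayed called in SCG+PSC against SCG. Col4a5 and Col25a1 were lost in that comparison, and Col11a1 in SCG+PSC against SCG+MEF. On whole reads with the replicate block DESeq2 gave 2 in each of the 3 nerve comparisons and edgeR gave 2, 2 and 1. The replicate block changed no other call of a collagen gene. Leaving out 1 library, with or without the block, gave 0 to 2 genes in PSC+SCG against PSC, 0 to 3 in SCG+PSC against SCG, 0 to 3 in SCG+MEF against SCG and 0 to 2 in SCG+PSC against SCG+MEF. With replicates 1 and 2 alone and the block, chosen after seeing the data as was leaving out 1 library with the block, the counts were 2 in stellate cells and 0 in each nerve comparison, where fewer libraries carry the fit. The 8 genes highest per kilobase were the same 8 under both lengths in each table.

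Of the 40 log2 fold changes followed across settings, 7 changed sign when 1 library was left out. In PSC+SCG against PSC they ranged from −0.84 to 0.17 for Col9a3, −0.91 to 0.07 for Col8a2, −0.32 to 0.12 for Col1a2 and −0.29 to 0.06 for Col1a1. In SCG+PSC against SCG they ranged from −0.03 to 0.79 without and 0.10 to 0.81 with the block for Col22a1, and from −0.10 to 1.02 without and −0.12 to 1.17 with the block for Col6a5, which was −0.22 with replicates 1 and 2 alone, with and without the block. In SCG+MEF against SCG, Col9a3 ranged from −1.10 to 0.02. The cause was not tested. Depth limits the members under 10 normalized counts, 9 in stellate cells and 3 in explants, whose fold changes rest on few reads.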
